A study of Rattus norvegicus with 4 samples.

Results

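The glomerular endothelial identity genes are 10 genes taken by symbol from the expression table: Ehd3, Emcn, Cdh5, Plvap, Vwf, Eng, Egfl7, Sox17, Klf2 and Klf4. All 10 were listed, each in a single row, among 13261 genes. They were measured in glomeruli of 4 male Wistar rats, labelled replicates 1 to 4 below, that had each received Adriamycin (ADR, doxorubicin) intravenously, a drug that injures podocytes in rats. The rats weighed 150 to 175 g per the labels; their age, the ADR dose and which of the labelled harvest days (11 or 21) applied to each rat were not given in the sources used here. The labels list separate samples without naming the animals, and each sample is taken below as a separate rat. The 4 samples form the only group. Control rats were not analysed here, so no value below is a response to ADR, and the comparisons are between these samples.

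Glomerular capillaries are lined by a flat endothelium pierced by open fenestrae, through which plasma reaches the basement membrane and the podocytes. Unlike fenestrated capillaries elsewhere, those of the mature glomerulus mostly lack the diaphragms formed by the Plvap protein. Ehd3, a membrane-trafficking ATPase, is used as a marker of glomerular endothelium in the kidney, whereas Cdh5 marks endothelium in general and Vwf is richest in larger vessels.

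Glomeruli were isolated with sieves, and poly(A) RNA was sequenced. The table gave back whole read counts, with totals of 13566962 to 16207027 reads per rat over the listed genes. Levels are given as CPM, reads scaled to the same total in each rat, without correction for transcript length, and so the genes are not ranked against each other. Podocyte markers such as Nphs1 and Synpo were present in each rat, with a summed level over 8 genes of 3696 to 7039 CPM, and so were 8 proximal tubule markers, at 2824 to 5709 CPM. The 15 measured pan-endothelial genes that are not among the 10 summed to 5129 to 6839 CPM. In tissue pieces of mixed cells, fewer cells of a type and less RNA per cell cannot be told apart, and since CPM is a share of a total, a higher level of other genes lowers it. Mitochondrially encoded genes took 12.8% of reads in replicate 2 and 7.63% to 9.65% in the others.

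Promoter windows, 250 bases before to 50 after the gene start, were found in RefSeq (build GRCr8, which is not the build named for the expression table) for 6 of the 10 genes. They are shown for 4 genes whose profiles across rats are set against each other below: the pair used to mark glomerular endothelium, Ehd3 (chr6:27417396-27417695, minus strand) and Emcn (chr2:228564289-228564588, plus strand), and a pair that peaked in replicate 2, Plvap (chr16:18231230-18231529, minus strand) and Egfl7 (chr3:29805381-29805680, plus strand, the first of 2 windows). Capitals mark GGAAG or its reverse complement CTTCC, a core shared by sites of the ETS family, to which the endothelial factor Erg belongs.
Ehd3: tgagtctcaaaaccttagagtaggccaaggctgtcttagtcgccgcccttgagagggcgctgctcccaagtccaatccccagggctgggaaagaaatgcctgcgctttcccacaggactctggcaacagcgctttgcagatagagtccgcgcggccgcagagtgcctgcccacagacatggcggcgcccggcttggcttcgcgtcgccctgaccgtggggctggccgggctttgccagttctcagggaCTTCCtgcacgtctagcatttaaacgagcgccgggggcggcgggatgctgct
Emcn: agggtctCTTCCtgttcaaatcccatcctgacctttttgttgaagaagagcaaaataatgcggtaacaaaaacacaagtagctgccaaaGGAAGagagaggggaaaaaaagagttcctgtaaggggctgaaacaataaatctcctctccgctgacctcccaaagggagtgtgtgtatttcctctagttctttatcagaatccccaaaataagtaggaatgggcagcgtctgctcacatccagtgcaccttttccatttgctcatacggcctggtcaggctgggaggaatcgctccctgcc
Plvap: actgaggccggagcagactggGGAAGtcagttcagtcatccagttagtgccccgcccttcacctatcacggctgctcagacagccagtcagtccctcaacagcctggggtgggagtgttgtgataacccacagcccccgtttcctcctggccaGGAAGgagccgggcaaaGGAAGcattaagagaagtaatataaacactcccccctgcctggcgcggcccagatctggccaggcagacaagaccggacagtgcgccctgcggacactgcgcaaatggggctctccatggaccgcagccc
Egfl7: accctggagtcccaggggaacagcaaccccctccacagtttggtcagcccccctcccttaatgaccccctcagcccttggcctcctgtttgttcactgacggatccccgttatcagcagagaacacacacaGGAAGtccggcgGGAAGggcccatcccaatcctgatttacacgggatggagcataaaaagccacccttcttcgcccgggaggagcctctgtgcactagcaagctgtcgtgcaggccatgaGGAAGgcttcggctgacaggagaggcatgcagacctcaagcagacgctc
The Ehd3 window held 1 match, that of Emcn 2, those of Plvap and Egfl7 3 each, and that of Eng 2. The second Egfl7 window and the Klf4 window held 0. A match was found in 70.1% of all 33469 windows of 300 bases, with a mean of 1.32 matches per window, so that its presence in 5 of these 7 windows sets nothing apart. The letters TATAAA or TTTATA, found in 14.2% of all windows, occurred in the Plvap window (1) and the Klf4 window (2).

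Ehd3 and Emcn, the genes of the glomerular capillary, were abundant in all 4 rats. Ehd3 (ENSRNOG00000007744) had 1126, 1231, 1343 and 1060 CPM in replicates 1 to 4, a mean of 1190 ± 124 CPM (SD, n = 4). Replicates 2 and 3 lay above replicates 1 and 4, and the highest rat had 1.27 times the level of the lowest. With an SD of 0.15 on the log2 CPM scale, Ehd3 had the smallest SD of the 10 genes over the 4 rats and without replicate 3. Another gene had the smallest SD without each of the other rats: Eng without replicate 1 (0.08 against 0.17 for Ehd3), Plvap without replicate 2 (0.11 against 0.18) and Vwf without replicate 4 (0.10 against 0.13). Emcn (ENSRNOG00000022910) encodes endomucin, a sialomucin of capillary and venous endothelium that hinders leukocyte adhesion. It had 552, 682, 816 and 694 CPM, a mean of 686 ± 108 CPM (SD, n = 4), with replicate 1 lowest, replicate 3 highest and a 1.48-fold range. Each of these values rested on 7494 to 20615 reads.

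**Figure D1:**
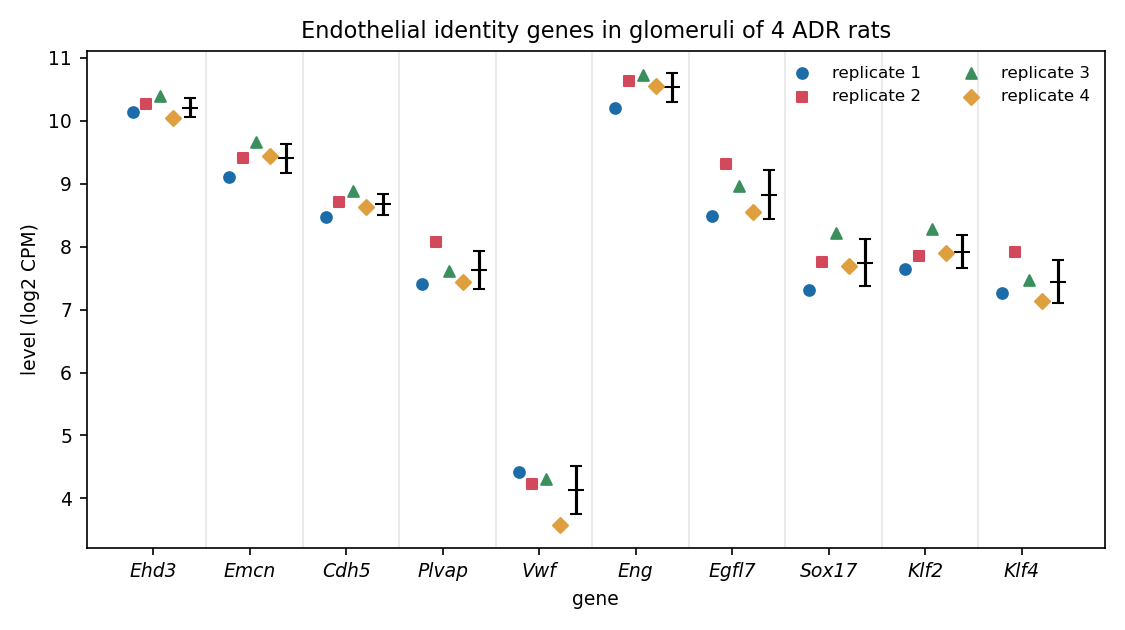
Level of each of the 10 genes (log2 CPM, vertical axis) in the 4 rats, with the mean and SD over rats as a bar beside the points. Ehd3 points lie within 0.34 log2 units of each other, those of Sox17 span 0.91, and Vwf in replicate 4 lies below its other 3 values.

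The general endothelial genes Cdh5 and Eng were highest in replicate 3, as Ehd3 and Emcn were, and lowest in replicate 1, as Emcn was. Cdh5 (ENSRNOG00000013324), the cadherin of endothelial junctions, had 356, 418, 471 and 395 CPM, a mean of 410 ± 47.9 CPM (SD, n = 4), lowest in replicate 1 and highest in replicate 3. Eng (ENSRNOG00000050190) encodes endoglin, a co-receptor for BMP9 and BMP10 on endothelium, and had 1186, 1593, 1689 and 1507 CPM, a mean of 1494 ± 218 CPM (SD, n = 4). Replicate 1 was lower than the other 3 rats, which had 1507 to 1689 CPM. Without replicate 1 the SD of Eng was 0.34 times the value of limma's trend for genes of its abundance, against 0.94 times with all 4 rats.

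Egfl7 (ENSRNOG00000019388) encodes a matrix protein secreted by endothelium, and an intron of the gene holds the endothelial microRNA miR-126. Its level was 359, 638, 500 and 375 CPM in replicates 1 to 4, a mean of 468 ± 130 CPM (SD, n = 4), and replicate 2 had 1.78 times the level of replicate 1. The mature microRNAs that RefSeq (build GRCr8) places inside the Egfl7 gene on its own strand are shown because the measured transcript is their host; they were not themselves measured. Capitals mark the seed, bases 2 to 8.
rno-miR-126a-3p: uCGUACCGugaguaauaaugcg
rno-miR-126a-5p: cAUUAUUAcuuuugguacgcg
The table also lists a row named Mir126a (ENSRNOG00000035591), without coordinates or strand. RefSeq gives the symbol Mir126a to miR-126b, on the strand opposite to Egfl7, and the symbol Mir126b to the sequences shown. The row could be tied to neither, so it is not taken as their precursor. It had 59, 104, 68 and 63 reads in replicates 1 to 4, most in replicate 2. They are few reads from a poly(A) library and are not a level of mature miR-126.

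Plvap and Vwf, the genes of other vessels, did not resemble each other. Plvap (ENSRNOG00000017676) encodes the protein of fenestral diaphragms, and had 171, 269, 195 and 173 CPM, a mean of 202 ± 45.8 CPM (SD, n = 4). Replicate 2 stood above the other 3 rats, and the values of replicates 1 and 4 had overlapping 95% counting intervals. Vwf (ENSRNOG00000019689), the clotting protein stored in Weibel-Palade bodies, had 21.4, 18.8, 19.7 and 11.9 CPM from 290, 304, 302 and 181 reads. Its mean was 17.9 ± 4.17 CPM (SD, n = 4). The exact 95% Poisson interval in replicate 4, 10.2 to 13.7 CPM, lay below those of the other 3 rats, which overlapped each other and had 16.7 CPM as their lowest bound. Vwf was the gene of the 10 for which replicate 1 was highest. Platelets also carry Vwf. Of 6 platelet and megakaryocyte genes, 3 were measured, and they summed to 16.9, 24.1, 21.6 and 19.9 CPM, with replicate 4 neither highest nor lowest; Ppbp, Gp1ba and Gp6 were not analysed here. The part of platelets in the Vwf values was not tested.

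The transcription factors peaked in replicate 3 or in replicate 2. Sox17 (ENSRNOG00000027357), a SoxF factor of arterial endothelium, had 159, 216, 299 and 207 CPM, a mean of 220 ± 58.1 CPM (SD, n = 4). With all 4 rats its 1.88-fold range was the widest of the 10 genes. Without replicate 3 it ran from 159 to 216 CPM, and the 1.80-fold range of Vwf was wider. Klf2 (ENSRNOG00000014205), a factor induced by laminar flow, had 201, 232, 311 and 240 CPM, a mean of 246 ± 46.5 CPM (SD, n = 4). Both were lowest in replicate 1 and highest in replicate 3. Klf4 (ENSRNOG00000016299), its flow-responsive relative, which podocytes also express, had 153, 240, 177 and 141 CPM, a mean of 178 ± 44.2 CPM (SD, n = 4), and was highest in replicate 2.

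Over the 10 genes, 7 were lowest in replicate 1, against 35.0% of all 13261 genes, and 3 (Ehd3, Vwf and Klf4) in replicate 4, against 13.9% of all genes. The highest value fell in replicate 3 for 6 genes, against 29.6% of all genes, in replicate 2 for Plvap, Egfl7 and Klf4, against 21.3%, and in replicate 1 for Vwf. In 7 of the 10 genes, both replicates 2 and 3 exceeded both replicates 1 and 4, an order found in 23.5% of all genes; Emcn, Klf2 and Vwf were the exceptions. That number was 9 with mitochondrially encoded genes left out of the total and 8 with median-of-ratios scaling, while the number lowest in replicate 1 was 7 and 6. These genes were chosen as endothelial and share cells and libraries, so they are not separate observations of an order.

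**Figure D2:**
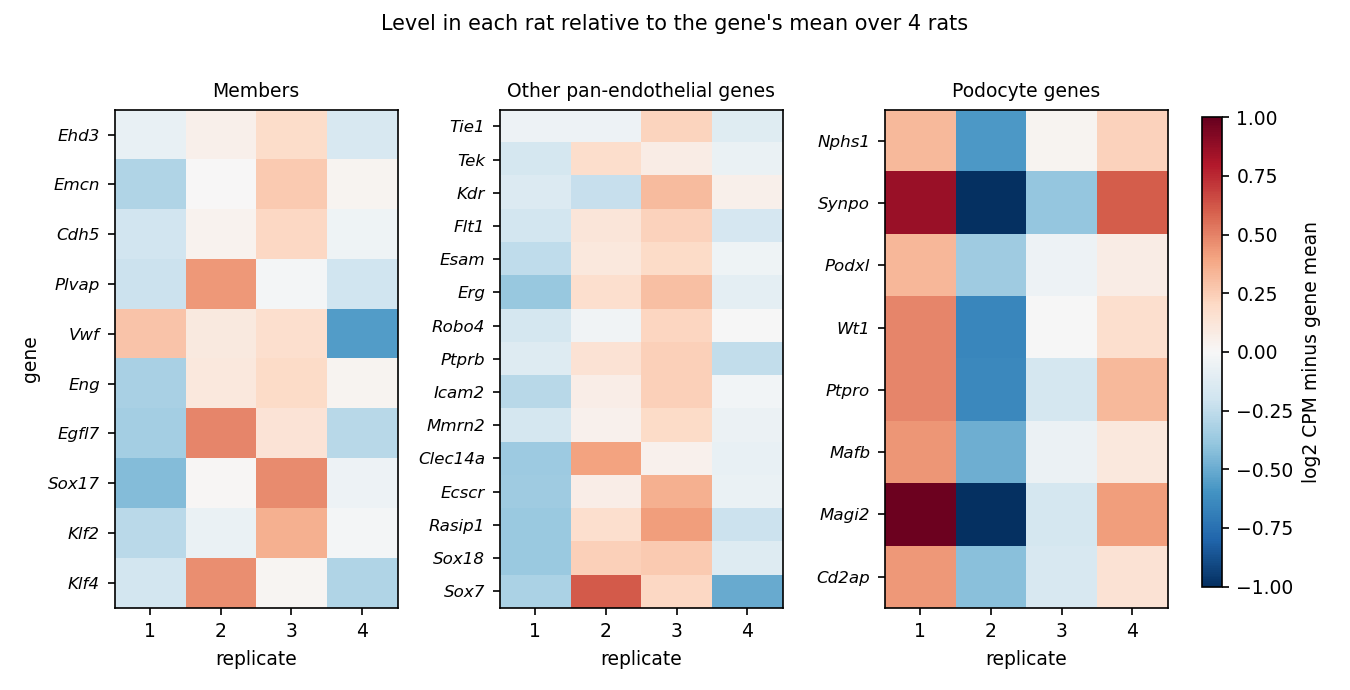
Level in each rat minus the gene's mean over 4 rats (log2 CPM, colour) for the 10 genes, 15 other pan-endothelial genes and 8 podocyte genes; rows are genes and columns are replicates, and values beyond 1 or -1 take the end colour. Replicate 1 is the lowest column for 7 of 10 members and 11 of 15 pan-endothelial genes, whereas each of the 8 podocyte genes is highest there and lowest in replicate 2.

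Differences between the rats exceeded counting error for all 10 genes (chi-square index of dispersion on reads, Benjamini-Hochberg adjusted over all genes, largest adjusted p = 6.72e-09, for Vwf). This was found for 69.5% of all genes, and for 96.4% of the 1519 genes with a mean of at least 2000 reads, as 9 of the 10 have. It therefore sets the members apart from no other abundant genes. Such differences may also be technical. For Vwf the result rested on replicate 4: without that rat its adjusted p was 0.327, while the other 9 genes stayed past the threshold without any of the 4 rats.

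The spread was then set against that of genes of like abundance with limma's variance trend. None of the 10 genes was called more variable, or less variable, at an adjusted p under 0.05, and 0.0% of all genes were called in either direction. At an unadjusted p under 0.05 in that test, 0 members passed in either direction, against 5.44% of all genes for more and 4.83% for less variation. Sox17 had the smallest limma adjusted p for more variation, 0.918, at an SD 2.46 times the trend. The SD was above the trend for 7 of the 10 genes, against 47.8% of all genes, and Ehd3 (0.67 times), Eng (0.94 times) and Cdh5 (0.996 times) were below it. The side of the trend on which Eng and Cdh5 lay turned with the processing: without mitochondrially encoded genes in the total they were at 1.09 and 1.15 times, and without replicate 2 at 1.25 and 1.33 times. Eng was also above it with the robust prior (1.05 times) and Cdh5 without replicate 4 (1.04 times). Ehd3 was below the trend in each of these fits. Single rats also decided other values. Without replicate 2 the SD of Plvap fell from 2.02 to 0.77 times the trend and that of Klf4 from 2.27 to 1.17 times. Without replicate 3, Sox17 went from 2.46 to 1.57 times and Klf2 from 1.70 to 0.87 times. Vwf went from 2.02 to 0.47 times without replicate 4, and Emcn from 1.22 to 0.77 times without replicate 1. Leaving out replicate 2 raised other values, for Sox17 from 2.46 to 3.23 times, for Emcn from 1.22 to 1.66 times and for Ehd3 from 0.67 to 0.91 times. In simulated data this test made no call for a change in 1 rat about as large as the widest range among the members, so the lack of calls does not show that they vary like other genes. The median SD of the 10 genes was 0.28 log2 units, and the median over all genes was 0.18.

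**Figure D3:**
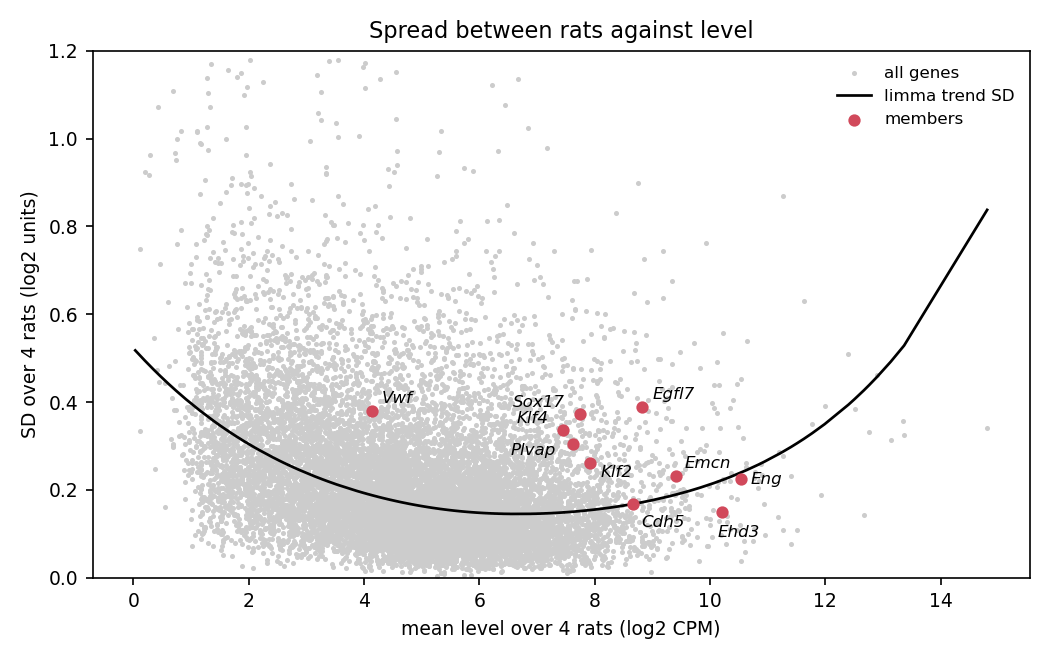
SD over 4 rats (log2 units) against mean level (log2 CPM) for all genes in grey, with limma's abundance trend as a line and the 10 members in red; 33 genes with an SD above 1.2 lie outside the axis. Ehd3 lies at 0.67 times the trend, and Sox17, Klf4, Egfl7, Vwf and Plvap lie at 2.02 to 2.46 times with all 4 rats, while Vwf and Plvap lie below the trend without replicate 4 and replicate 2.

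To see which members moved with the endothelium as a whole, each was set against the mean log2 CPM of the 15 pan-endothelial genes in the same rat. That mean was 7.29, 7.67, 7.77 and 7.42 in replicates 1 to 4. It comprised the receptor genes Kdr, Flt1, Tek and Tie1 and the junction and transcription factor genes Esam, Robo4 and Erg, among others; Pecam1 and Cldn5 were not analysed here. Kdr had 1782 ± 307 CPM and Robo4 15.7 ± 1.80 CPM (SD, n = 4), and Sox7 had the largest SD of the list on the log2 scale, 0.51. Within the list, 11 of 15 genes were lowest in replicate 1, 12 were highest in replicate 3, and 13 had replicates 2 and 3 above replicates 1 and 4, against 35.0%, 29.6% and 23.5% of all genes.

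Relative to that mean, the SD over rats was smaller than that of the member itself for 9 of 10 genes, against 25.3% of the 13246 genes outside that list and 21.5% of those with a mean of at least 2000 reads. Both the members and the list were chosen as endothelial genes. The median SD of the members was 0.17 instead of 0.28 log2 units. With the list's median in place of its mean, the number was 6 and the median SD 0.21. Without a single rat the number was 7 (replicate 3) to 9 (replicate 1), and the median SD was 0.12 (without replicate 2) to 0.20 (without replicate 4). With all 4 rats, Cdh5 had the smallest relative SD, 0.08, followed by Eng at 0.10 and Ehd3 and Emcn at 0.12 each. Without replicate 1 that of Ehd3 was smaller than that of Cdh5, and without replicate 4 that of Eng was. In Ehd3 the remaining difference lay in replicate 1, where it was 0.17 above its mean relative level while replicates 2 to 4 lay between -0.08 and -0.04. Vwf was the exception: its relative SD was 0.40 against 0.38, with 0.54 in replicate 1 and -0.44 in replicate 4.

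Plvap, Egfl7 and Klf4 remained high in replicate 2 relative to the pan-endothelial mean. They stood there at 0.30, 0.35 and 0.33 log2 units above their mean relative level. The other 7 genes were below their own means in that rat, but Eng and Vwf only by 0.03 each. For Vwf this lay within its 95% counting interval of 11.4% on either side. Plvap and Klf4 had the most similar profiles of all pairs of members, with a root mean square difference of 0.060 log2 units between their centred values over 4 rats. Emcn and Eng were next, at 0.064. Vwf was far from every other member, with its nearest, Ehd3, at 0.27. Smooth muscle genes were also highest in replicate 2: Acta2 had 57.1, 103, 79.5 and 82.6 CPM, Myh11 32.4, 77.6, 70.2 and 61.9 CPM, and Tagln 234, 373, 318 and 296 CPM. Over the 8 mesangial and smooth muscle genes, 4 were highest and 4 lowest in replicate 2, against 21.3% and 31.5% of all genes, and the sum was 2039, 2290, 2299 and 2581 CPM. Their part in the values of Plvap, Egfl7 and Klf4 was not tested.

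**Figure D4:**
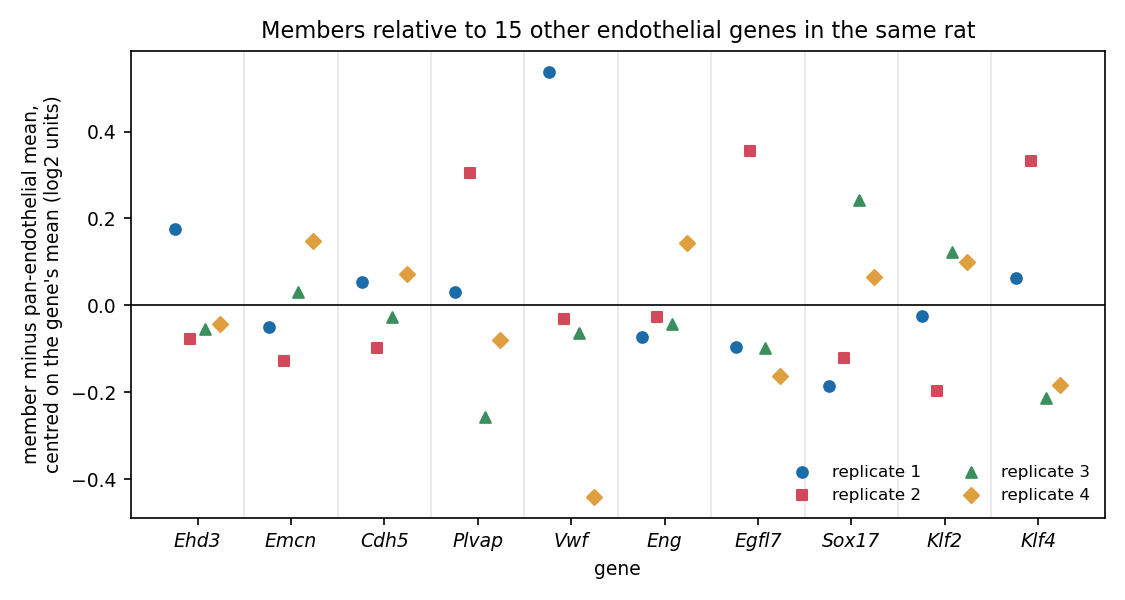
Each member minus the mean of 15 pan-endothelial genes in the same rat, centred on the gene's own mean (log2 units), with points for the 4 replicates. Replicate 2 lies at 0.30 to 0.35 for Plvap, Egfl7 and Klf4 and below zero for the other genes, close to it (-0.03) for Eng and Vwf. Vwf runs from 0.54 in replicate 1 to -0.44 in replicate 4.

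The glomerular capillary genes were next compared with the general and other-vessel genes within each rat. Because transcript lengths differ, the size of a ratio between genes has no meaning here, and only its change from rat to rat is given. On the log2 scale, the ratio of Ehd3 to Cdh5 had a range of 0.24 over rats, and that of Emcn to Cdh5 a range of 0.18. Against Plvap the ranges were 0.59 for Ehd3 and 0.72 for Emcn, each lowest in replicate 2. Against Vwf they were 0.76 and 1.18, each lowest in replicate 1 and highest in replicate 4, and the ratio of Emcn to Vwf differed 2.26-fold between those rats. Replicate 2 decided the ratios to Plvap: without it, the range for Ehd3 was 0.17 in place of 0.59 log2 units, and that for Emcn 0.37 in place of 0.72. For Vwf the range fell without replicate 1 or replicate 4, for Emcn from 1.18 to 0.68 log2 units in both cases and for Ehd3 from 0.76 to 0.44 and 0.37. The range of Ehd3 to Cdh5 went from 0.24 to 0.14 log2 units without replicate 1 and to 0.15 without replicate 4, and that of Emcn to Cdh5 from 0.18 to 0.11 without replicate 1.

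Other genes reported in glomerular endothelium were split. Of 6 measured, Nostrin, Gata5 and Tspan7 were lowest in replicate 1 and highest in replicate 3, as Emcn was, and Pi16 was highest in replicate 3 and lowest in replicate 4, as Ehd3 was. Plat, which encodes tissue plasminogen activator, had 1111, 928, 894 and 970 CPM, the highest level in replicate 1, and Sost had 50.6, 21.6, 34.5 and 42.0 CPM, with the largest SD of the list, 0.53 log2 units. Limma called 0 of the 6 more variable at an adjusted p under 0.05, against 0.0% of all genes, and Sost alone passed unadjusted, against 5.44%.

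Arterial genes followed more than 1 order. Of 10 measured, 7 were lowest in replicate 2 and 3 in replicate 1, against 31.5% and 35.0% of all genes. The highest value fell in replicate 4 for 5 and in replicate 3 for 4, against 21.4% and 29.6% of all genes. Sema3g, which podocytes also express, had 3384 ± 1331 CPM and the largest SD of the list (0.63 log2 units), and Hey1 had 5.51 ± 1.77 CPM (SD, n = 4 for both). Among them Dll4, a Notch ligand of arterial endothelium, had 85.7, 95.2, 139 and 146 CPM, and Cxcl12 50.7, 32.8, 62.8 and 83.1 CPM. Vwf was lowest in replicate 4, whereas the venous gene Nr2f2 was lowest in replicate 2 and highest in replicate 4, at 94.3, 68.1, 80.1 and 97.5 CPM. Ephb4 and Aplnr, the other two venous and capillary genes measured, had replicates 2 and 3 above replicates 1 and 4.

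The relatives of the members were examined by family. In the EHD family Ehd1 had 143, 114, 94.5 and 106 CPM and Ehd2 238, 164, 208 and 229 CPM, both highest in replicate 1, whereas Ehd4 differed little, at 115 ± 5.24 CPM (SD, n = 4). None of them shared the order of rats seen for Ehd3. In the SoxF family Sox18 had 149, 229, 232 and 177 CPM and Sox7 14.5, 27.7, 21.0 and 12.8 CPM. Replicates 2 and 3 were above replicates 1 and 4 in all 3 SoxF genes, the member Sox17 included, an order found in 23.5% of all genes. Of the 12 KLF genes measured, 8 were highest in replicate 2 and 3 in replicate 3, against 21.3% and 29.6% of all genes, those 3 being Klf2, Klf6 and Klf13. Klf10 had the largest SD of the family (0.54 log2 units), with 53.9, 96.0, 39.1 and 58.8 CPM, and Klf3 was highest in replicate 2 like Klf4, at 104, 157, 145 and 107 CPM. Differences beyond counting error were found for 8 of the 12, against 69.5% of all genes; Klf6, Klf7, Klf13 and Klf16 did not pass.

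Genes known to respond to Klf2 or Klf4 in cultured endothelium followed more than 1 order of rats. Among those that these factors induce, Nos3, the endothelial nitric oxide synthase, had 169, 241, 273 and 172 CPM, and Thbd, the anticoagulant thrombomodulin, 524, 652, 611 and 448 CPM. S1pr1, a receptor for sphingosine 1-phosphate, had 166, 187, 178 and 167 CPM, a mean of 174 ± 9.96 CPM (SD, n = 4). Replicates 2 and 3 were above replicates 1 and 4 in all 3, an order found in 23.5% of all genes. Of the genes that these factors are known to repress, Edn1 had 18.1, 35.2, 52.6 and 43.2 CPM, lowest where Klf2 was lowest, and Vcam1 had 41.6, 28.6, 50.3 and 109 CPM with the largest SD of the list, 0.81 log2 units. Angpt2 was highest in replicate 4 as well. All 6 differed between rats beyond counting error, as did 69.5% of all genes and 96.4% of those with a mean of at least 2000 reads. Limma called 0 of them more variable at an adjusted p under 0.05, against 0.0% of all genes, with Edn1 and Vcam1 passing unadjusted, against 5.44%.

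Partners of endoglin were next examined. Acvrl1, which encodes the type I receptor ALK1, had 344, 476, 517 and 397 CPM, and Bmpr2, the type II receptor, 256, 249.7, 273 and 216 CPM. Of 9 genes of the pathway, 5 were lowest in replicate 1, as Eng was, and 7 were highest in replicate 3, against 35.0% and 29.6% of all genes. The inhibitory Smad genes were among them: Smad6 had 129, 155, 301 and 151 CPM, with the largest SD of the list at 0.54 log2 units, and Smad7 156, 201, 206 and 162 CPM. The target gene Id1 had 154, 284, 219 and 152 CPM, highest in replicate 2 like Egfl7, and Id3 201, 249.9, 270.1 and 267 CPM. Limma called 0 of the 9 more variable at an adjusted p under 0.05, against 0.0% of all genes, with Smad6 and Id1 passing unadjusted, against 5.44%. All 9 differed beyond counting error, against 69.5% of all genes and 96.4% of those with a mean of at least 2000 reads.

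Markers of other cell types also differed between rats, some in the direction of the members and some opposite to it. All 8 podocyte genes were highest in replicate 1 and lowest in replicate 2, against 27.7% and 31.5% of all genes, and their sum was 7039, 3696, 5013 and 6087 CPM, so the members that were lowest in replicate 1 were low where podocyte genes were highest. The 8 proximal tubule genes were all lowest in replicate 3, against 19.6% of all genes, where 6 members were highest, with sums of 5709, 4145, 2824 and 4579 CPM. Of 8 leukocyte genes measured, 7 were lowest in replicate 1, against 35.0% of all genes, and the list summed to 1047, 1342, 1315 and 1232 CPM. The 4 erythroid genes were each lowest in replicate 1 and highest in replicate 3, against 35.0% and 29.6% of all genes, from 929 to 1703 CPM in sum. None of the measured markers of these lists was at 0; Cd163 was not analysed here. The parts that these cells have in the members' values were not tested.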

How the data were processed

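Poly(A) RNA of glomeruli from 4 rats was measured. Per the submitters' processing notes, HISAT2, featureCounts, Subread and limma were used with genome build Rnor_6.0; roles and filters are not given in the sources used here. The deposited values are log2 values in 1 column per sample, matched by title; 0 value columns belonged to no sample. For 100% of values, 2 raised to the deposited log2 value was a whole number of reads (within 0.01) plus 0.5, times a constant of the sample, so reads were recovered; 4 rows with displaced cells were left out of 13265. Totals were 13566962, 16207027, 15348629 and 15244063 reads. Intervals cover counting error only, since reads carry no molecular identifiers. The labels list separate samples without naming the animals, so p-values measure the spread between these samples, which may be technical.

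Spread was tested with a chi-square index of dispersion on reads (3 degrees of freedom) and with limma 3.58.1 (R 4.3.3), comparing residual variance with its abundance trend by the F distribution in each direction, both Benjamini-Hochberg adjusted over all genes at 0.05. Scripts were tested on simulated data. All members are named. For the other lists the rule took the highest, lowest and most variable gene and allowed any gene of the EHD, SoxF, KLF, endoglin and Klf-response lists; not every gene so taken is printed, and some others were picked after their values were seen. The members and 17 other lists were chosen with earlier results of these data known; 1 gene of the podocyte list is not reported here. Lengths of transcripts were not at hand, so the planned order of levels per kilobase was not made. Alternatives were other scalings, offsets of 1 and 0.1 CPM, filters, a robust prior and leaving out each rat.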

Additional observations from a re-analysis of the deposited data

Results flagged for a closer look

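Of 143 values examined (each gene of the lists, the Mir126a row, 6 ratios and 10 relative levels), 4 had 1 rat set apart from the other 3, by the ratio of the gap to the whole range at Dixon's 95% critical value; chance alone gives about 7.15, or 5%. Over all genes the share was 5.08%. Ehd3 relative to the pan-endothelial list had a ratio of 0.861, with replicate 1 at 0.17 and the others at -0.08 to -0.04 log2 units. Egfl7 relative to the same list had 0.870, with replicate 2 at 0.35 and the others at -0.16 to -0.10. The Mir126a row had 0.842, with 104 reads in replicate 2 and 59 to 68 in the others. Cd14, a monocyte gene, had 0.891, with 14.7 CPM in replicate 1 and 21.2 to 22.2 in the others.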

How the results depend on the processing

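No paired analysis was possible because the samples form 1 group. Across the other scalings, offsets, the robust prior and the filter on low values, limma called 0 members in either direction, as it did without each rat, with the smallest member adjusted p for more variation between 0.914 and 0.985. The number of members beyond counting error was 10 under each scaling and filter and 9 to 10 without a rat. The number lowest in replicate 1 was 6 or 7 under other scalings and offsets and 7 to 9 without replicate 2, 3 or 4; the number highest in replicate 3 was 6 and 6 to 9; the number with an SD above the trend was 7 to 9 and 5 to 8. Mean levels moved by 0.144 log2 units without mitochondrial genes in the total and by at most 0.19 without a rat. Without each rat in turn the ranges of the ratios between genes were 0.14 to 0.24 log2 units for Ehd3 against Cdh5, 0.17 to 0.59 for Ehd3 against Plvap, 0.37 to 0.76 for Ehd3 against Vwf, 0.11 to 0.18 for Emcn against Cdh5, 0.37 to 0.72 for Emcn against Plvap and 0.68 to 1.18 for Emcn against Vwf; fewer samples can only keep or narrow a range. The lengths needed for levels per kilobase were not at hand, so that alternative was not run. Leaving Sox7 and Sox18 out of the pan-endothelial list, chosen after seeing the data, left 9 of 10 members with a smaller relative SD; the number was 7 to 9 without a rat and 6 with the list's median. Depth limits Vwf most, with a 95% counting interval of 11.4% to 14.9% on either side of its values, against 1.22% to 4.32% for the other 9 genes.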

Other observations

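Genes used as lymphatic markers were partly present. Lyve1 had 155, 159, 177 and 123 CPM and Flt4 83.8, 95.5, 116 and 90.6 CPM in replicates 1 to 4, each highest in replicate 3, as were 6 of the 10 endothelial identity genes. Reln had 1.89 to 2.51 CPM, from 29 to 36 reads, and did not differ beyond counting error (chi-square on reads, adjusted p = 0.604). Prox1, Mmrn1 and Ccl21 were not analysed here.

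Immediate early genes, a class that also responds to tissue handling, were lowest in replicate 1 for 7 of 12 and highest in replicate 3 for 7 of 12, against 35.0% and 29.6% of all genes. Dusp1 had 153, 248, 414 and 306 CPM and Fos 13.6, 22.6, 39.8 and 31.9 CPM. Both had the order of rats of Klf2 and Emcn, from replicate 3 through replicates 4 and 2 down to replicate 1. For Klf2 and Emcn, however, replicates 2 and 4 had overlapping 95% counting intervals. In both genes replicate 2 passed above replicate 4 with mitochondrially encoded genes left out of the total. Jun, by contrast, was even, at 241 ± 6.16 CPM (SD, n = 4), and did not differ beyond counting error (chi-square on reads, adjusted p = 0.087). Klf2 and Klf4 are themselves rapidly induced in many cells, and the part of handling in their values was not tested.

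Among 8105 genes with an SD at least that of Ehd3, those with the profile nearest to it over the 4 rats were Nudt22, Casc1 and LOC100912008, with root mean square differences of 0.016, 0.016 and 0.019 log2 units. They had 123 to 167, 147 to 200 and 229 to 320 reads, so counting error is a larger part of their values than of those of Ehd3, which had at least 15280.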
